A study of Mus musculus with 6 samples.

Results

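The fibroblast growth factor (FGF) system of the fetal mouse testis was examined as a set of 37 genes in RNA-seq counts of whole testes at E12.5, the day of embryonic development at which testis cords form. The set was chosen by gene symbol alone from the 24470 genes of the table. It holds the 22 FGF ligand genes, the 5 receptor genes Fgfr1 to Fgfr4 and Fgfrl1, and 10 genes of the feedback and transcriptional response to FGF signaling, namely Spry1 to Spry4, Spred1 to Spred3, Dusp6, Etv4 and Etv5. Control testes carried floxed Ppp1r3c alleles (Ppp1r3c f/f), and cKO testes carried the same floxed alleles together with Sf1-Cre. There were 3 samples per group, each a pool of 2 gonad pairs. Both groups shared the floxed alleles, and the mice were kept on a C57BL/6 background. The Cre is driven by Nr5a1 (Sf1) sequences, which are active in Sertoli cell progenitors and in other somatic cells of the gonad, so Cre is a difference between the groups in addition to the deletion. Ppp1r3c encodes protein targeting to glycogen, which brings a phosphatase to glycogen synthase and favors glycogen storage, and the comparison asks which FGF genes the testis expresses and whether they differ when this storage is genetically reduced in Sertoli cells.

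FGF ligands are mostly secreted proteins that bind heparan sulfate and receptor tyrosine kinases, which signal through the RAS, RAF, MEK and ERK kinases. A small intracellular branch of the family (FGF11 to FGF14) is not secreted and is known as modulators of ion channels and other intracellular partners. ERK activity induces the ETS factors ETV4 and ETV5 of the PEA3 group and also the inhibitors that dampen the pathway, including Sprouty and Spred proteins and the ERK phosphatase DUSP6. In the mouse gonad, FGF9 acting through FGFR2 is known to be required for Sertoli cell differentiation, where it sustains SOX9 and opposes the ovarian signal WNT4.

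Library totals ranged from 16139487 counts in control replicate 1 to 44145158 counts in control replicate 2. The targeted gene Ppp1r3c had 23.2 ± 1.19 CPM (counts scaled to a common normalized library total, SD, n = 3) in control and 5.35 ± 0.624 CPM in cKO testes, and edgeR gave a log2 fold change of -2.11 with an FDR of 0.000126. Sertoli markers were high in every sample, with a summed level between 1761 and 2289 CPM over 7 genes. Of the cKO samples, 2 stood apart. The female-specific transcript Xist was counted 12534 times in cKO replicate 3 and 6 to 41 times in any other library, and 5 pre-granulosa markers summed to 228 CPM there against 59.7 to 74.8 CPM elsewhere. Xist is transcribed from the inactive X chromosome of female cells, so this count goes against the testis label of the library labelled cKO replicate 3. Whether the pool held an XX gonad was not tested, and each cKO mean below includes this library. Without it, edgeR called 0 members, and 2 had an unadjusted p under 0.05. In cKO replicate 1, 42 genes exceeded 3 times their level in every other library, against 26 genes in cKO replicate 3 and 0 in the other 4 libraries. Germ cell markers summed to 459, 731 and 739 CPM in control and to 462, 204 and 344 CPM in cKO testes, and 7 of 7 were lower in cKO (6 at an unadjusted edgeR p under 0.05, 0 called). Because whole testes were sequenced, fewer cells of a type and less RNA per cell cannot be told apart.

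Every receptor and feedback gene of the FGF system was measurable at E12.5, and so were 13 of the 22 ligands. Of the 37 genes, 28 passed the filter on low counts and are termed measured, including all 15 receptor and feedback genes. At a level of at least 1 TPM (a level per transcript length, scaled to a common total) in all 6 samples, 22 genes remained, of which 7 were ligands. The 9 ligands that did not pass the filter were Fgf3, Fgf4, Fgf6, Fgf14, Fgf15, Fgf20, Fgf21, Fgf22 and Fgf23, with at most 11 counts and at most 0.632 TPM in any library. They include the endocrine branch, FGF15, FGF21 and FGF23, which act as hormones. Fgf6 had 0 counts in all 6 libraries, and Fgf14 had 0 counts in all control libraries and 3, 0 and 6 counts in cKO replicates 1 to 3. Whether a few cells express these genes could not be seen at this depth.

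No member was called between cKO and control. With an edgeR FDR below 0.05 as the threshold, 0 of 28 measured members passed, against 6 of all 15577 tested genes (0.0385%), and the lowest FDR of a member was 0.413. DESeq2 called 0 of the 25 members to which it gave an adjusted p, against 0.779% of its genes. At an unadjusted edgeR p under 0.05 there were 2 members, Fgf7 and Spry4, which is 7.14% of the members against 11.4% of all tested genes. DESeq2 had 0, but it gave no p for Fgf7. In 5 members (17.9%) the CPM of the groups did not overlap, against 15.6% of all tested genes. Of these, Spry2, Spry4, Spred1 and Fgf12 were higher in every cKO sample and Fgf18 was lower. The shares of members at either criterion lay near those of all genes. Fitted log2 fold changes were above 0 for 16 members and below 0 for 12, with a median of 0.030 against -0.0034 over all genes. The size was under 0.3 on the log2 scale for 24 members, and the 95% confidence interval lay within 0.5 of zero for 17 and within 1 of zero for 24. The intervals were narrow for receptors and feedback genes, with standard errors (SE) from 0.0498 to 0.211, and wide for the low ligands Fgf7, Fgf8, Fgf16, Fgf12 and Fgf17.

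**Figure D1:**
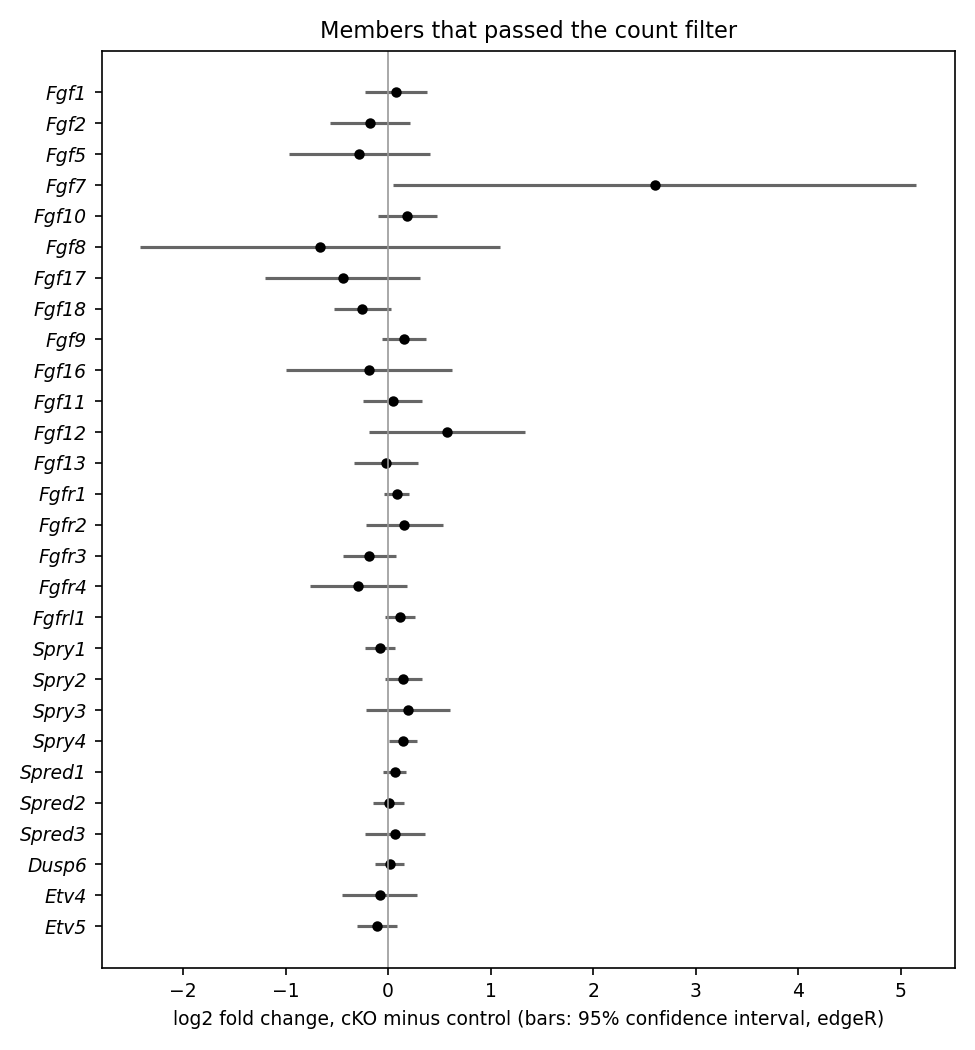
Fitted log2 fold change of cKO minus control (x axis, edgeR) for each of the 28 measured members (y axis). Points are estimates and bars are 95% confidence intervals from 3 samples per group. Most points lie within 0.3 of the zero line, and Fgf7 and Fgf8 have the widest bars.

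The secreted ligands with the highest levels were Fgf18, Fgf9 and, depending on the transcript length used, Fgf2. In control testes Fgf18 stood at 19.2 ± 2.81 TPM (SD, n = 3), Fgf9 at 14.1 ± 1.21 TPM and Fgf2 at 12.46 ± 0.497 TPM. The ranges of Fgf9 and Fgf2 over the control samples overlapped, and the lowest control sample of Fgf18 lay above the highest of both. Lengths were fitted to the gene ends of the table, and this matters for these genes. Fgf9 has 4139 exonic bases by the fitted model and 1593 by the GENCODE model, which would put it at 38.9 TPM and first among all ligands. Fgf2 has 695 fitted bases against 5973, which would put it at 1.53 TPM. The order among Fgf9, Fgf18 and the intracellular Fgf13 and Fgf11 is therefore not settled by these data, but these 4 genes were the highest ligands by fitted length, by GENCODE length and by CPM without any length. Over all 18 secreted ligand genes the summed level was 60.05 ± 2.45 TPM in control and 59.7 ± 5.44 TPM in cKO testes.

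Fgf9 (chr14:58072686-58112720, plus strand, mm10), the ligand known for testis determination, was slightly higher in cKO by the fit. Its level was 23.6, 23.7 and 19.6 CPM in control replicates 1 to 3 and 25.3, 26.2 and 22.8 CPM in cKO replicates 1 to 3. The groups overlapped, since cKO replicate 3 lay below control replicates 1 and 2. The log2 fold change was 0.16 (SE 0.0955, 95% confidence interval -0.059 to 0.371, edgeR p 0.135, FDR 0.556). It was 0.063 without control replicate 3, the lowest sample, and 0.21 without cKO replicate 3. Its subfamily partners were low, with 0.902 ± 0.432 TPM of Fgf16 in control and 0.758 ± 0.0745 TPM in cKO testes and with at most 1 count of Fgf20 in a library.

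Fgf18 (chr11:33116970-33147400, minus strand), of the FGF8 subfamily and known for its role in bone and cartilage, was the only measured member that was lower in every cKO sample. The levels were 13.2, 10.1 and 10.5 CPM in control and 9.60, 9.37 and 9.17 CPM in cKO testes. The gap between the groups was small beside the spread of the control samples, of which replicate 1, the shallowest library, was the highest. The fitted difference was -0.25 (SE 0.123, edgeR p 0.0691, FDR 0.467), and it was -0.14 without control replicate 1. The other members of this subfamily were near the limit of detection. Fgf17 had 9 to 36 counts in each library and was fitted at -0.44 on the log2 scale (SE 0.337, edgeR FDR 0.633). Fgf8, a ligand of early embryonic patterning, had 2, 14 and 14 counts in control and 17, 2 and 1 counts in cKO testes. Fgf8 was thus high in cKO replicate 1 and low in the other cKO samples. Its log2 fold change was -0.66 over all samples (SE 0.779, edgeR FDR 0.774) and -2.62 without cKO replicate 1 (edgeR p 0.00927, FDR 0.218).

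Fgf7 (chr2:126034658-126091185, plus strand), a mesenchymal ligand that acts on epithelia through a splice form of FGFR2, had the largest fitted change, and it rested on 1 library. Its counts were 6, 27 and 6 in control replicates 1 to 3 and 250, 15 and 7 in cKO replicates 1 to 3. The cKO replicates 2 and 3 lay within the range of the control samples in CPM, and cKO replicate 1 alone stood out at 6.23 CPM against 0.146 to 0.611 CPM elsewhere. The log2 fold change was 2.60 (SE 1.13, edgeR p 0.0464, FDR 0.434) and -0.26 without that library (edgeR p 0.698). Fgf7 was 1 of the 42 genes that exceeded 3 times every other library there. Others among the 42, chosen here after their values were seen, were Thbs2, Ankrd1, Ptgs2 and Msln, the last a marker of mesothelium, at 87.1, 19.5, 17.4 and 8.28 CPM in cKO replicate 1. In every other library Msln was at most 0.521 CPM and Ptgs2 at most 0.905 CPM. The part of this library's composition in the Fgf7 value was not tested. Fam227b lies across Fgf7 in the opposite direction, and reads were assigned by strand.

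Fgf2, or basic FGF, stood at 11.2 ± 1.54 TPM in cKO testes, and its log2 fold change was -0.18 (SE 0.172, edgeR FDR 0.712). Of the remaining secreted ligands, Fgf10, another mesenchymal ligand of the FGF7 subfamily, stood at 5.39 ± 0.565 TPM in control and 6.28 ± 0.574 TPM in cKO testes (log2 fold change 0.19, edgeR FDR 0.590). Fgf1 stood at 3.80 ± 0.158 TPM in control and 4.08 ± 0.230 TPM in cKO testes, and Fgf5 at 1.26 ± 0.477 and 1.10 ± 0.138 TPM. The groups overlapped for each of these ligands. Fgf4 was below the filter, with 1, 6 and 3 counts in control and 2, 0 and 0 counts in cKO testes.

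The 4 intracellular ligands made up a large part of the FGF transcripts, with a summed level of 37.4 ± 4.13 TPM in control and 38.2 ± 4.82 TPM in cKO testes. Fgf13, which is X-linked, had 22.4 ± 2.33 TPM and Fgf11 14.6 ± 2.01 TPM in control testes, and their ranges did not overlap. Fgf11 stood at 15.2 ± 1.95 TPM in cKO testes, a fitted difference of 0.045 on the log2 scale (SE 0.128, edgeR FDR 0.918). The Fgf13 levels were 27.1, 22.6 and 25.7 CPM in control and 24.7, 29.6 and 19.5 CPM in cKO replicates 1 to 3. The lowest of these came from cKO replicate 3, the library with Xist. Its log2 fold change was -0.022 over all samples (SE 0.139, edgeR FDR 0.970) and 0.12 without cKO replicate 3. Fgf12 had 8, 67 and 63 counts in control and 66, 71 and 67 counts in cKO testes. In CPM the groups of Fgf12 did not overlap, and control replicate 1 was far below the rest. edgeR gave Fgf12 a log2 fold change of 0.58 (SE 0.338, FDR 0.535), and 0.30 without that sample.

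**Figure D2:**
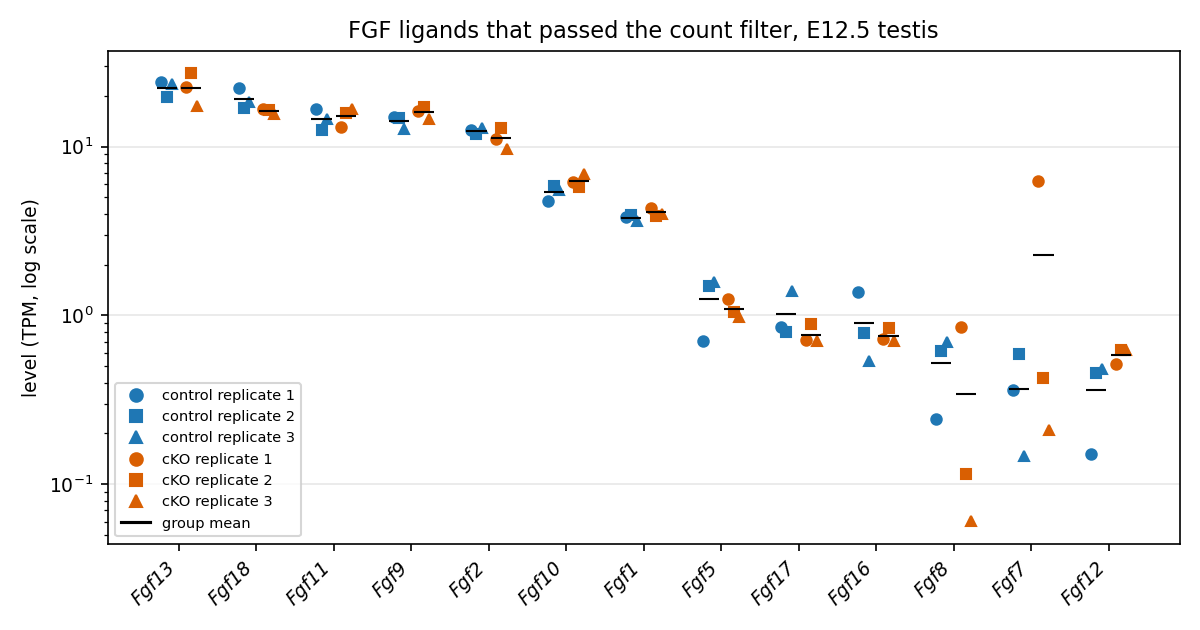
Level of the 13 measured FGF ligands (x axis, ordered by control mean) in TPM on a log scale (y axis). Each point is 1 sample, blue for control and orange for cKO, the marker shape gives the replicate, and black bars are group means (n = 3). The first 5 genes lie near or above 10 TPM, and the 6.24 TPM of Fgf7 in cKO replicate 1 stands far above its other 5 points.

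Among the receptors, Fgfr1 was the most abundant, followed by Fgfrl1 and Fgfr2, with Fgfr3 and Fgfr4 well below them. The control levels were 83.8 ± 2.07 TPM for Fgfr1, 51.0 ± 0.334 TPM for Fgfrl1, 39.2 ± 3.25 TPM for Fgfr2, 9.19 ± 1.03 TPM for Fgfr3 and 4.64 ± 1.03 TPM for Fgfr4 (SD, n = 3). No neighbors in this order overlapped over the control samples, and the order was the same with GENCODE lengths. Fgfr1 held 44.7 ± 1.69% of the summed receptor TPM in control and 44.7 ± 3.02% in cKO testes.

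Fgfr1 (chr8:25518759-25575718, plus strand), a receptor of mesenchymal and many other cells, had 162, 167 and 153 CPM in control and 171, 166 and 172 CPM in cKO testes. The groups overlapped in CPM, because cKO replicate 2 lay just below control replicate 2. In TPM, which was not adjusted by the TMM factors, they did not overlap, with 81.6 to 85.6 TPM in control and 89.6 to 91.1 TPM in cKO testes, and the same held for Fgfrl1. edgeR put the difference at 0.082 on the log2 scale (SE 0.0524, 95% confidence interval -0.036 to 0.200, FDR 0.571). Fgfrl1, a receptor without a kinase domain, had 50.6 to 52.6 CPM in control and 52.3 to 58.5 CPM in cKO testes (log2 fold change 0.11, SE 0.0648, edgeR FDR 0.524).

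Fgfr2 (chr7:130162451-130266808, minus strand), the receptor known to carry the FGF9 signal in Sertoli cell progenitors, had 79.6, 74.6 and 84.6 CPM in control and 75.0, 72.7 and 119 CPM in cKO replicates 1 to 3. A single cKO sample was high, and of the others replicate 1 lay near the lowest control sample and replicate 2 below it. Over all samples the log2 fold change was 0.16 (SE 0.166, 95% confidence interval -0.216 to 0.532, edgeR FDR 0.739), and without cKO replicate 3 it was -0.11 (SE 0.0753, edgeR p 0.183). The pre-granulosa markers were high in the same sample, including Fst at 50.9 CPM against at most 2.02 CPM in every other library and Foxl2 at 7.56 CPM against at most 1.22 CPM. Their part in the Fgfr2 value was not tested.

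The lower receptors were on average lower in cKO by the fit. Fgfr3 had 16.3, 13.6 and 16.1 CPM in control and 12.1, 15.1 and 13.3 CPM in cKO testes. By edgeR the difference was -0.18 on the log2 scale (SE 0.115, FDR 0.565). Fgfr4 had 6.90, 4.53 and 5.22 CPM in control and 3.67, 4.23 and 5.54 CPM in cKO testes, which edgeR put at -0.29 on the log2 scale (SE 0.211, FDR 0.614). The groups overlapped for both receptors. For Fgfr4 only cKO replicate 3, the library with Xist, reached the control range. Without that library the Fgfr4 log2 fold change was -0.47.

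**Figure D3:**
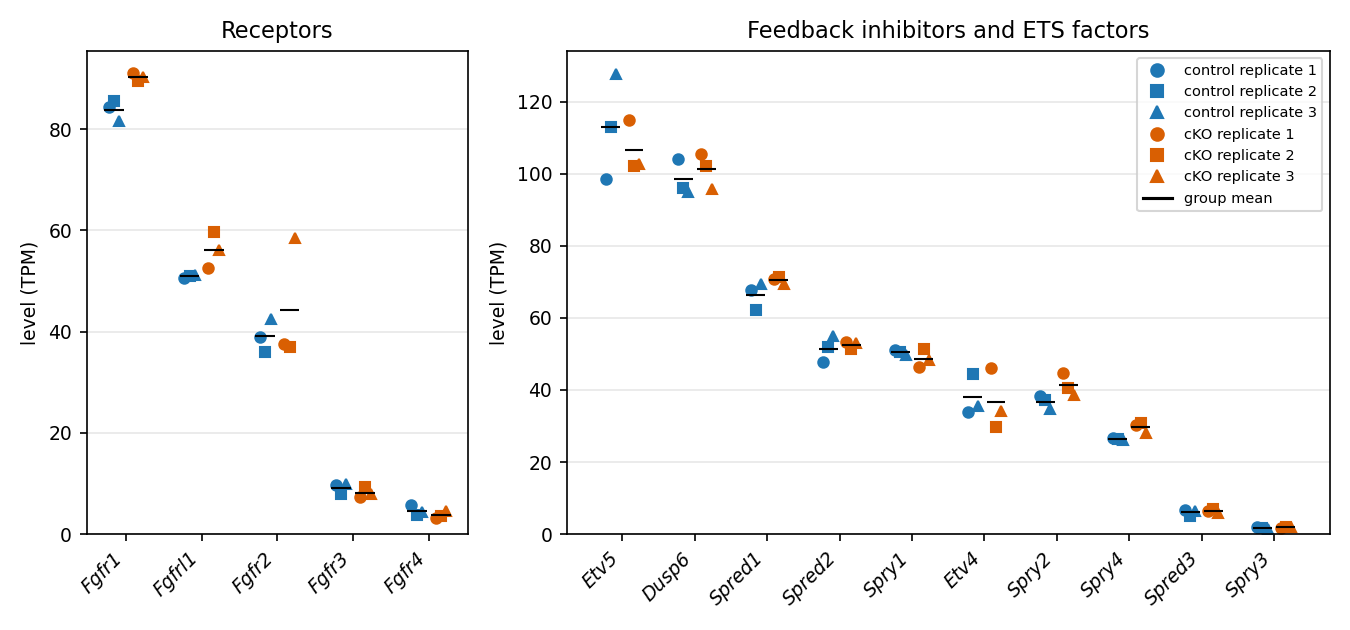
Level in TPM (y axes) of the 5 receptors and of the 10 feedback genes (x axes, ordered by control mean). Each point is 1 sample, blue for control and orange for cKO, with black bars for group means (n = 3). Etv5, Dusp6 and Fgfr1 are the highest genes, and Fgfr2 in cKO replicate 3, at 58.6 TPM, lies above its other 5 points.

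Etv5 and Dusp6 had the highest levels per length of the feedback set. Etv5 stood at 113 ± 14.7 TPM and Dusp6 at 98.4 ± 4.997 TPM in control testes, with overlapping ranges, followed by Spred1 at 66.4 ± 3.77 TPM and Spred2 at 51.5 ± 3.67 TPM. Spry1 was the highest Sprouty gene at 50.5 ± 0.722 TPM and overlapped Spred2. Etv4 at 37.9 ± 5.56 TPM and Spry2 at 36.7 ± 1.85 TPM overlapped each other. Spry4 followed at 26.4 ± 0.225 TPM, Spred3 at 6.11 ± 0.871 TPM and Spry3 last.

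Dusp6 (chr10:99263231-99267489, plus strand), the cytoplasmic phosphatase of ERK whose transcript is widely used as a readout of FGF signaling, was close to equal in the groups. It had 111, 104 and 99.0 CPM in control and 110, 105 and 102 CPM in cKO testes. The fitted difference was 0.016 on the log2 scale, with a 95% confidence interval of -0.123 to 0.156 (SE 0.0620, edgeR FDR 0.940).

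Etv5 (chr16:22381313-22439570, minus strand) had 144, 167 and 182 CPM in control and 164, 144 and 149 CPM in cKO testes, so that the groups overlapped (log2 fold change -0.11, SE 0.0868, edgeR FDR 0.642). Etv4 (chr11:101769748-101785310, minus strand) had 30.3, 40.1 and 30.8 CPM in control and 40.1, 25.6 and 30.2 CPM in cKO testes. Its log2 fold change was -0.082 (SE 0.163, edgeR FDR 0.880). In both groups the ETS factors varied between samples more than Dusp6 did. With 1 sample left out at a time, the Etv5 difference lay between -0.20 without control replicate 1 (edgeR p 0.0280, FDR 0.321) and -0.039 without control replicate 3. Germ cell marker sums also varied between samples, and the order of the libraries was similar. From highest to lowest sum it was control replicates 3 and 2, cKO replicate 1, control replicate 1, and cKO replicates 3 and 2. Etv5 had the same order except that control replicate 1 was lowest, just below cKO replicate 2. Etv4 had it except that control replicate 3 and cKO replicate 1, with a sum of 462 CPM, changed places. The part of germ cell content in these values was not tested.

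Of the 4 Sprouty genes, which act as inhibitors of RAS and ERK activation, 2 had separated groups in CPM. Over all measured members that share was 17.9%, near the 15.6% of all tested genes. Spry4 had 46.7, 46.8 and 44.9 CPM in control and 52.0, 52.4 and 48.9 CPM in cKO testes. All cKO samples lay above all control samples. The log2 fold change was 0.15 (SE 0.0610, 95% confidence interval 0.011 to 0.286, edgeR p 0.0366, FDR 0.413), and DESeq2 gave an unadjusted p of 0.0512. With 1 sample left out at a time, the edgeR p lay between 0.0323 and 0.107. Spry2 had 30.5, 30.1 and 26.9 CPM in control and 35.0, 31.3 and 30.6 CPM in cKO testes. Here the groups nearly touched, and edgeR gave 0.15 on the log2 scale (SE 0.0806, FDR 0.507). Spry1 lay the other way, with 48.8, 48.8 and 46.2 CPM in control and 43.2, 47.3 and 45.7 CPM in cKO testes (log2 fold change -0.077, SE 0.0639, edgeR FDR 0.664). Spry3 lies on a scaffold that this build assigns to the X chromosome without a position on it. It was low, at 1.63 ± 0.201 TPM in control and 1.88 ± 0.173 TPM in cKO testes, and its groups overlapped.

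The Spred genes, relatives of Sprouty that recruit neurofibromin to restrain RAS, differed little. Spred1 (chr2:117121071-117182279, plus strand) had 183, 171 and 183 CPM in control and 188, 186 and 187 CPM in cKO testes. The cKO samples lay just above the highest control sample in CPM, and edgeR gave a log2 fold change of 0.063 (SE 0.0498, FDR 0.649). In TPM the groups overlapped, with at most 69.42 TPM in control and at least 69.36 TPM in cKO testes. Spred2 had 52.3 to 58.8 CPM in control and 54.4 to 57.9 CPM in cKO testes, a difference of 0.0039 (SE 0.0672). For Spred3 the difference was 0.067 (SE 0.129). Summed over the 4 Sprouty genes the level was 115 ± 2.93 TPM in control and 122 ± 4.35 TPM in cKO testes, and over the 3 Spred genes it was 124 ± 6.14 and 130 ± 1.08 TPM.

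**Figure D4:**
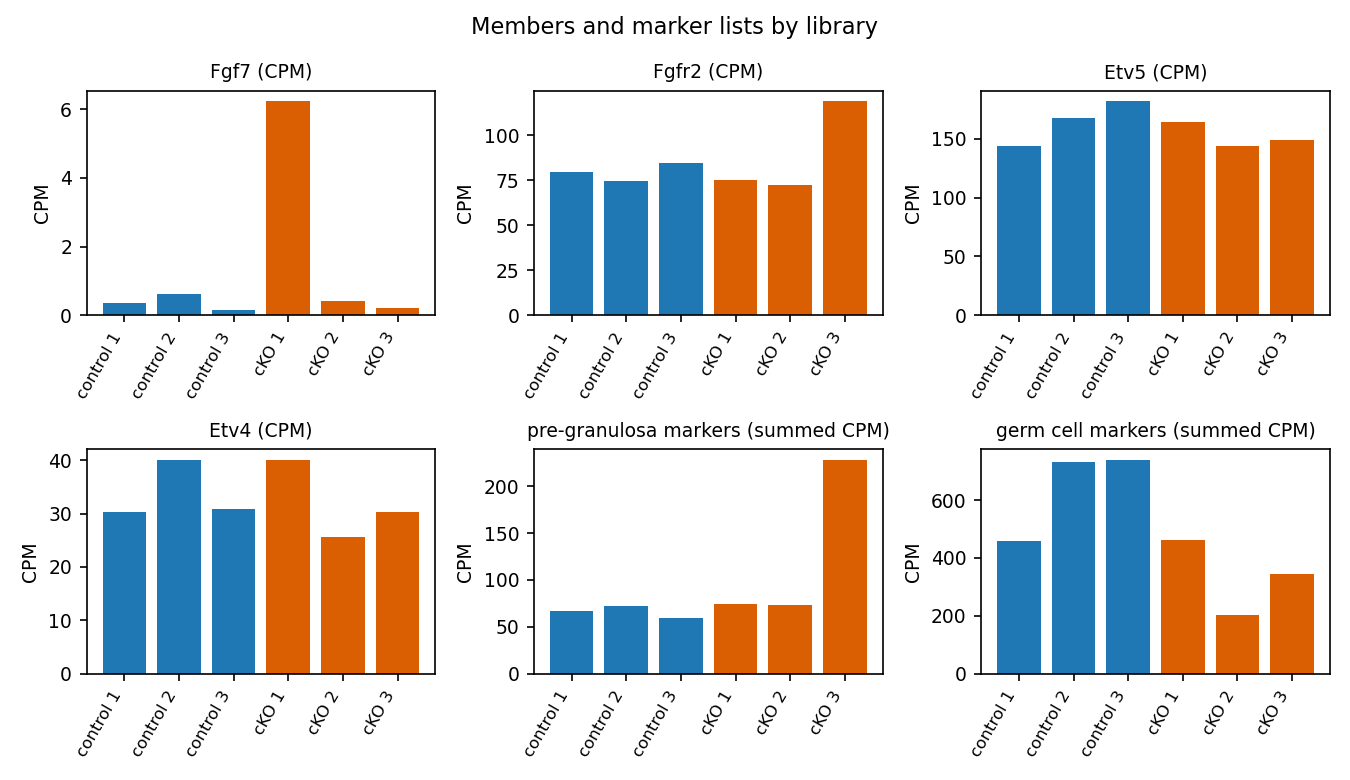
CPM (y axes) of Fgf7, Fgfr2, Etv5 and Etv4, and summed CPM of 5 pre-granulosa and 7 germ cell markers, in each of the 6 libraries (x axes). Each bar is 1 library, blue for control and orange for cKO, so there are no error bars. Fgf7 is high in cKO replicate 1 alone, and Fgfr2 and the pre-granulosa markers are highest in cKO replicate 3.

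Promoter sequences are shown for the testis-determining ligand Fgf9, for the ERK target Dusp6 and for the 1 member that holds the ETS motif searched. They come from the RefSeq annotation of GRCm38.p6, run 5′ to 3′ on the plus strand, and cover 250 bases before and 50 bases from the start of the gene on. Fgf9 is chr14:58072436-58072735, Dusp6 is chr10:99262981-99263280 and Fgfrl1 is chr5:108693979-108694278, and capitals mark the motif CCGGAAG.
Fgf9: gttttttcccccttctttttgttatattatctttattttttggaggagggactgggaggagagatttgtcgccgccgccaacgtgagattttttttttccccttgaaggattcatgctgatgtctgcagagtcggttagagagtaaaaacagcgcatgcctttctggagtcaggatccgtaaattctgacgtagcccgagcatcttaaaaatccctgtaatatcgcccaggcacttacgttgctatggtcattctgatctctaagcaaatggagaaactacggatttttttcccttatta
Dusp6: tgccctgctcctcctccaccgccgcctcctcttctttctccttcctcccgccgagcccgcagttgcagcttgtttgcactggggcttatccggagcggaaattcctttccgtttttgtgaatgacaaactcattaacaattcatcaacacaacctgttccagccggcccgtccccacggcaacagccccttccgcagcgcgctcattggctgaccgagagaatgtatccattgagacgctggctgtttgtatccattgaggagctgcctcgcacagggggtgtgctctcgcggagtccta
Fgfrl1: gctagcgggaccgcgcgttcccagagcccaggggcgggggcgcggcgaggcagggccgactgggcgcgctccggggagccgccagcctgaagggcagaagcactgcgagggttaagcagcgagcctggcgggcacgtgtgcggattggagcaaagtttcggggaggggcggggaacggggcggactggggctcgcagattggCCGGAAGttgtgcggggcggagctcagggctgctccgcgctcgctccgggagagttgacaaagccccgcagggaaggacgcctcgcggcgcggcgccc

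The motif CCGGAAG, a high-affinity form of the ETS binding sequence, was looked for on both strands (CTTCCGG on the other). RefSeq gave a promoter for 27 of the 37 members, and 1 of these, Fgfrl1, held the motif, starting at position 203 of the 300 bases. Over all 27025 genes with a promoter in the table the share was 9.93%. The match is a description of these letters and not of a bound site, and Fgfrl1 itself was not called.

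The rest of the pathway was described by 42 genes in 5 lists, of which 40 were measured. edgeR called 0 of the 40 and DESeq2 called 0. At an unadjusted edgeR p under 0.05 there were 4 genes (10%), all higher in cKO, and 6 genes (15.0%) had groups that did not overlap. The median log2 fold change was 0.032, with 23 genes above 0 and 17 below. These shares again lay near those of all genes. Without cKO replicate 3, Hs6st1 alone of the 4 stayed under that p (edgeR p 0.0165, FDR 0.633).

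Among co-receptors and binding proteins, 5 of 7 were measured and all 5 had fitted values above 0, with a median of 0.18. Flrt1, a membrane protein that interacts with FGF receptors, had 6.03, 6.38 and 8.27 CPM in control and 9.13, 8.18 and 10.6 CPM in cKO testes (log2 fold change 0.42, SE 0.159, edgeR p 0.0253, FDR 0.390). The summed level of this list was highest in cKO replicate 3, at 127 CPM against 85.8 to 99.8 CPM in the other libraries. Kl and Klb, the co-receptors of endocrine FGFs, had at most 22 and 3 counts in a library, and Klb did not pass the filter.

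Heparan sulfate enzymes build the sugar chains that FGF ligands need for receptor binding. All 8 were measured, and the lowest p of the pathway was that of Hs6st1, a 6-O-sulfotransferase. It had 315, 291 and 285 CPM in control and 329, 355 and 357 CPM in cKO testes. The groups did not overlap, and the log2 fold change was 0.23 (SE 0.0586, edgeR p 0.00368, FDR 0.377, DESeq2 FDR 0.0679).

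All 12 adaptors and RAS activators were measured, with a median of 0.032. Gab1, a docking protein downstream of receptor kinases, had 138, 135 and 134 CPM in control and 143, 154 and 155 CPM in cKO testes (log2 fold change 0.15, SE 0.0523, edgeR p 0.0159, FDR 0.380). The 8 kinases and scaffold of the MAPK cascade lay between -0.046 and 0.067, and their lowest p was that of Araf (log2 fold change 0.067, edgeR p 0.273). Among 7 other inhibitors, Dusp5, a nuclear ERK phosphatase, had 4.86, 4.98 and 4.71 CPM in control and 7.28, 5.09 and 6.90 CPM in cKO testes. Its groups did not overlap, and edgeR gave 0.41 on the log2 scale (SE 0.165, p 0.0351, FDR 0.410), while the median of the list was -0.10.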

How the data were processed

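RNA was extracted from pools of 2 pairs of E12.5 testes, and the authors prepared stranded mRNA libraries. Read pairs were aligned by the authors to mm10 with STAR 2.5 and assigned to curated RefSeq genes with featureCounts of Subread 1.5.0-p1 in a strand-specific mode. The deposited values are raw counts per gene without normalization, and no per-sample column was left unused.

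The set of FGF genes, the other gene lists and the tests were chosen with earlier results of these data known. Named with full statistics were members at an unadjusted p under 0.05, the highest members of each class, Fgf9, Fgfr2, Dusp6, Etv4 and Etv5, and in each pathway list the genes at that p or of lowest p. Some other members were added after their values were seen.

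Counts were tested in R 4.3.3 with edgeR 4.0.16 (filterByExpr with a minimum count of 10, TMM normalization, quasi-likelihood F-test, cKO against control on all 6 samples, Benjamini-Hochberg adjustment over 15577 genes, FDR threshold 0.05). Confidence intervals (95%) used the moderated degrees of freedom. CPM used TMM-scaled totals. DESeq2 1.42.0 and limma-voom (limma 3.58.1), the newer quasi-likelihood method, RLE factors, other filters, the replicate number as a block, thinned libraries and leaving out each sample were alternatives. For genes of the other lists, the fit without cKO replicate 3 was chosen after seeing the data. edgeR, DESeq2 and limma-voom were checked on simulated counts with planted changes larger than those fitted for most members. Recovery of changes as small as those was not checked. Where samples are not from separate litters, which the labels do not give, p-values measure only the spread between these pools.

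The table holds no gene lengths, so TPM was added after the file was seen, in place of the planned comparison within genes only. Exon lengths came from GENCODE M21 transcripts paired with RefSeq, clipped or extended (by at most 5000 bases at the 3′ end and 1000 at the 5′ end) to the gene ends of the table. Fgf13 was beyond the limit at its 5′ end and kept its GENCODE length of 2949 bases. Both ends of 22 members lay within 200 bases of GENCODE, against 80.0% of all genes. TPM was computed over the 21269 genes with a length, which held 96.8 to 97.0% of the counts.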

Additional observations from a re-analysis of the deposited data

How the results depend on the processing

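Each alternative test, normalization, filter and omission of a sample also gave 0 called members and 0 called genes of the pathway lists. With 1 sample left out at a time, the members' median log2 fold change moved between -0.010 (no cKO replicate 1) and 0.083 (no control replicate 1). The number of members at an unadjusted p under 0.05 was 2. It was 0 with DESeq2, which gave no p for Fgf7, with the replicate block and without control replicate 3. It was 1 with limma-voom, with the newer quasi-likelihood method and with the stricter filter. It was also 1 without control replicate 2 or cKO replicate 2, and 3 without a filter. The deviations of same-numbered samples correlated at -0.203, -0.266 and -0.130, so no pairing by replicate number was seen. With so few pools this cannot exclude a shared litter, which the labels do not give. The replicate block changed no call. Of 386 values of single members under alternatives, 367 kept their direction and their side of the threshold. Direction changed for Fgf1 in thinned libraries (-0.064), for Dusp6 in thinned libraries (-0.014) and for Spred2 with limma-voom (-0.0060) and with the newer quasi-likelihood method (-0.00021). Leaving out single samples also changed the direction of Fgf7 (-0.26 to 3.36), Fgf11 (-0.053 to 0.15), Fgf13 (-0.17 to 0.12), Fgf16 (-0.50 to 0.16), Fgfr2 (-0.11 to 0.28), Spred2 (-0.043 to 0.031), Spred3 (-0.049 to 0.14), Dusp6 (-0.029 to 0.060) and Etv4 (-0.28 to 0.055). Fgf9 ranked 4 among ligands by TPM, 2 by CPM and 1 with GENCODE lengths, Fgf18 ranked 2 by TPM and 4 by CPM, and Fgfr2 ranked 3 among receptors by TPM and 2 by CPM. Beyond the cases where a sample was left out, the cause of these moves was not tested. The call threshold, an FDR over 15577 genes, was stricter than the 95% confidence interval of a single gene. The Spry4 interval (0.011 to 0.286) excluded 0, yet Spry4 was not called (edgeR FDR 0.413). With 3 pools per group, differences inside or beyond the confidence intervals given above could go uncalled, and ligands under the count filter were not tested.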

Other observations

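The 9 genes of a list on testis determination were all measured, and edgeR called 0 of them. Fitted values were above 0 for 8, of which 3 had an unadjusted edgeR p under 0.05. Over all tested genes 11.4% were under that p. The median log2 fold change was 0.28. Sox9, the Sertoli determinant sustained by FGF9, had 184, 157 and 155 CPM in control and 213, 213 and 175 CPM in cKO testes (log2 fold change 0.28, SE 0.0919, edgeR p 0.0125, FDR 0.377). Gadd45g, which acts upstream of Sry, had 54.9, 50.8 and 33.9 CPM in control and 55.7, 58.3 and 61.7 CPM in cKO testes (log2 fold change 0.34, edgeR p 0.0490, FDR 0.439). Wnt4, the ovarian signal opposed by FGF9, had 51.8, 58.2 and 45.5 CPM in control and 59.0, 57.0 and 138 CPM in cKO replicates 1 to 3 (log2 fold change 0.70, edgeR p 0.0417, FDR 0.422). The high Wnt4 sample was cKO replicate 3, the library with Xist and with the highest Fgfr2, and without it the log2 fold change of Wnt4 was 0.16 (edgeR p 0.144). Sox9 stood at 0.37 without that library (edgeR p 0.00137, FDR 0.633) and Gadd45g at 0.30 (edgeR p 0.103).

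Sry itself was low, with 1.48, 2.15 and 0.366 CPM in control and 2.99, 2.47 and 2.51 CPM in cKO testes. The groups did not overlap, and the log2 fold change was 1.01 (SE 0.474, edgeR p 0.0612, FDR 0.454). Of 5 mesonephros markers 3 were measured, and all 3 were higher in cKO at an unadjusted edgeR p under 0.05. They were Pax2 (0.78 on the log2 scale), Pax8 (0.52) and Emx2 (0.37), and their values were highest in cKO replicate 3. Without that library they stood at 0.55, 0.32 and 0.16, and Pax8 alone stayed under that p (edgeR p 0.0393). Cdh16 of that list was at most 0.293 CPM.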
